A study of Mus musculus with 7 samples.

Results

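The mRNAs described here encode the actin and myosin machinery of the mouse cell and the very large proteins that tie the cytoskeleton together. They are 35 genes chosen by name: 3 actins, 2 regulators of actin turnover, 4 filament crosslinkers, 4 myosin chains, 8 tropomyosins, caldesmon and calponins, 3 adhesion plaque proteins, 4 membrane linkers, 4 giant linkers, 2 intermediate filament proteins and 1 microtubule-binding protein. The reads could match 55450 annotated genes, of which 21888 are nuclear protein-coding genes and include these 35. The series used RNA immunoprecipitation sequencing on untreated mouse embryonic stem cells kept in medium with LIF, the cytokine that holds such cells undifferentiated. Nuclear lysate was incubated with antibody, complexes were collected on protein A agarose beads, and the recovered RNA became cDNA by template switching. Of 7 libraries, 5 were made with an antibody to Ezh2, the histone methyltransferase subunit of Polycomb repressive complex PRC2, from wild-type cells of strain 129X(M.castaneusX129). Those 5 include a technical replicate, a biological replicate, and 2 deeper runs, 1 of them labelled a biological replicate. The remaining libraries were 1 Ezh2 immunoprecipitation from Ezh2 null cells, whose strain is given as M.musculus, and 1 IgG control from 129X(M.castaneusX129) cells. The sources used here do not say how the null line was made or whether feeder cells were present.

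All values come from a single deposited list in which every distinct sequence has a number of reads, 34072479 in all, with no library name. No label says which of the 7 libraries these reads came from. They were therefore treated as 1 pool, with no replicates, no test between groups and no enrichment over IgG or over Ezh2 null. Intervals cover counting error only, and copies made by PCR cannot be told from separate molecules. Of the 31529044 reads that were searched, 36.06% could be given to 1 gene, and 5863880 of these came from the mRNA strand (called sense; the read itself is the complement of the RNA) of nuclear genes outside an 18S-like ribosomal locus. Of 14 stem cell markers, 12 had at least 50 sense reads, led by Lefty2 with 66761 and L1td1 with 29926. Pou5f1 had 429, Sox2 210 and Nanog 37. Of 15 fibroblast markers, 14 had at least 50, led by Fn1 with 39715 and Sparc with 9902, so markers of both cell types were present in the pool. In such bulk data fewer cells of a type and less RNA per cell cannot be told apart.

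Actin monomers assemble into filaments, and nonmuscle myosin II, a motor whose tail is a long coiled coil, slides them past each other to contract the cell cortex. Tropomyosins and caldesmon bind along the filaments and control myosin's access. Crosslinkers, adhesion plaque proteins and spectrins anchor filaments to each other and to the membrane, and the giant plakin-family linkers connect actin with microtubules and intermediate filaments. In a coiled coil, helices wind around each other through a repeat of 7 residues with hydrophobic side chains at the first and the fourth.

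The cytoskeletal mRNAs were well represented, but they were chosen with earlier results of these data known. Their level against other genes is therefore a description only. Together they held 119759 sense reads, 2.04% of all nuclear sense reads, and none of the 35 was at 0. At least 50 sense reads were found for 31 of 35, whereas 29.2% of nuclear protein-coding genes reached that number. Per length, the median level was 2.39 sense reads per kb of merged exon and 1000000 searched reads (RPKM), against 0.0859 for the other 21853 nuclear protein-coding genes. Among genes with at least 50 sense reads the medians were 2.93 for these mRNAs and 0.972 for the others. The reads were concentrated in few genes: Myh9 alone held 42.03% of them, and Myh9, Actb and Cald1 together 70.2%. Counting each start position once lowered the median of the 35 from 2.39 to 0.319 RPKM, and allowing no mismatch lowered it to 1.18. The searched reads in the denominator stayed the same, so counting fewer reads could only lower the value. The median of other genes counted in these ways is not given here.

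**Figure D1:**
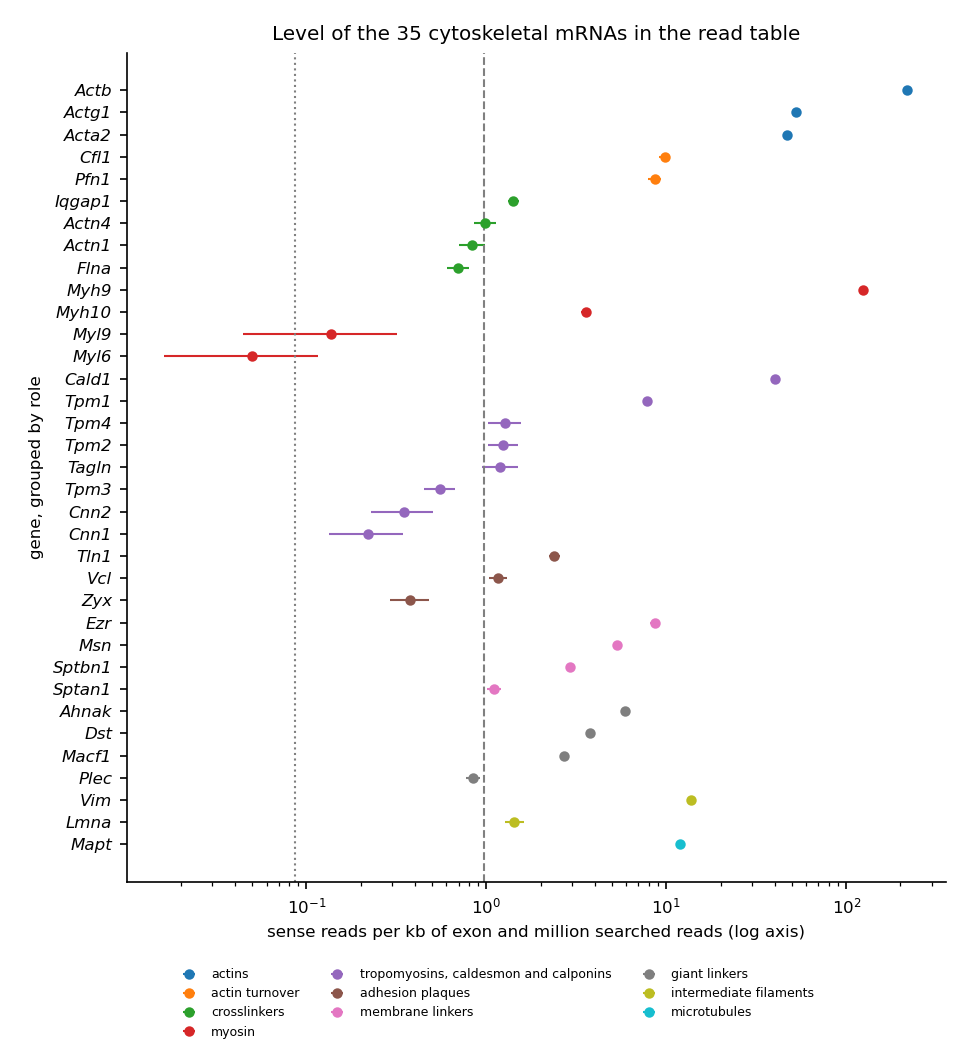
Sense reads per kb of merged exon and 1000000 searched reads for each of the 35 genes on a log axis, coloured by role, with 95% Poisson intervals; the dotted line is the median of all other nuclear protein-coding genes (0.0859) and the dashed line that of those with at least 50 sense reads (0.972). Actb (218.5) and Myh9 (123.5) lie highest, and the myosin light chains Myl6 (0.0498) and Myl9 (0.136) lowest, counting reads of 1 gene only.

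Within most genes the reads began at few bases. A start position here is the mRNA base at which the matched part of a read begins, which lies on the 3′ side because reads are the reverse complement of the mRNA, and 6 bases of the read beyond it were left out before matching. The most read start position of each gene held a median of 14.15% of its sense reads over the 31 mRNAs with at least 50, against 21.67% for other protein-coding genes with that many. The sequences below show 30 bases of mRNA around the most read start position of 8 genes, because these positions carry much of the signal and many share a feature. Base 16 is the start base, and capitals mark the letters AGAT where they begin after exactly 6 further bases.
Myh9: cacaggctgtggaggagctggcAGATcagt
Actb: gcctcactgtccaccttccagcAGATgtgg
Dst: taaagcaatggcgatcagaagtAGATgaga
Vim: tccctggagcgccagatgcgtgAGATggaa
Sptbn1: cagcacgagaatatcaaaaatgAGATcgac
Tpm1: aaggaagacaaatatgaagaggAGATcaag
Cald1: atgctgaagacaaaaagaaagaagaaaagg
Acta2: ggcaccactgaaccctaaggccaaccggga
The 8 start bases lie in coding exons. On GRCm38 the windows are at chr15:77771142-77771171 (minus strand) for Myh9 and chr5:142903858-142903887 (minus) for Actb. The Dst window spans a splice junction at chr1:34170494-34171140 (plus). Vim lies at chr2:13580024-13580053 (plus) and Sptbn1 at chr11:30137102-30137131 (minus). Tpm1 lies at chr9:67031476-67031505 (minus), Cald1 at chr6:34745936-34745965 (plus) and Acta2 at chr19:34248437-34248466 (minus). The first 6 of these 8 carry AGAT at that distance, and Cald1 and Acta2 do not.

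The main transcript of a gene is here the one with the longest complete coding sequence. Among sense reads placed on it, the letters AGAT stood after 6 bases in 21.42% for these mRNAs (interval 21.178 to 21.655) and in 11.07% for other nuclear protein-coding genes. Without Myh9 the share was 21.18%. At a distance of 5 bases it was 3.52%, at 7 bases 1.001%, and AGAT begins at 0.680% of all bases of the main transcripts of these genes, read on the mRNA strand only. Among the most read positions of 27 genes with at least 50 sense reads, 14 had the letters, against 24.6% of the most read positions of protein-coding genes. Counted by start positions rather than reads, the share was 6.67% for these mRNAs and 7.32% for the others. AGAT begins at 0.466% of all bases of the other main transcripts. In both groups the feature was thus more frequent at start positions than over all bases. It was more frequent still by reads, with the larger gap between reads and positions in these mRNAs. The feature was noticed in the leading positions before it was counted. AGATC is the reverse complement of the end of a widely used sequencing adapter, the primers used here are not given in the sources used, and whether priming took part was not tested.

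**Figure D2:**
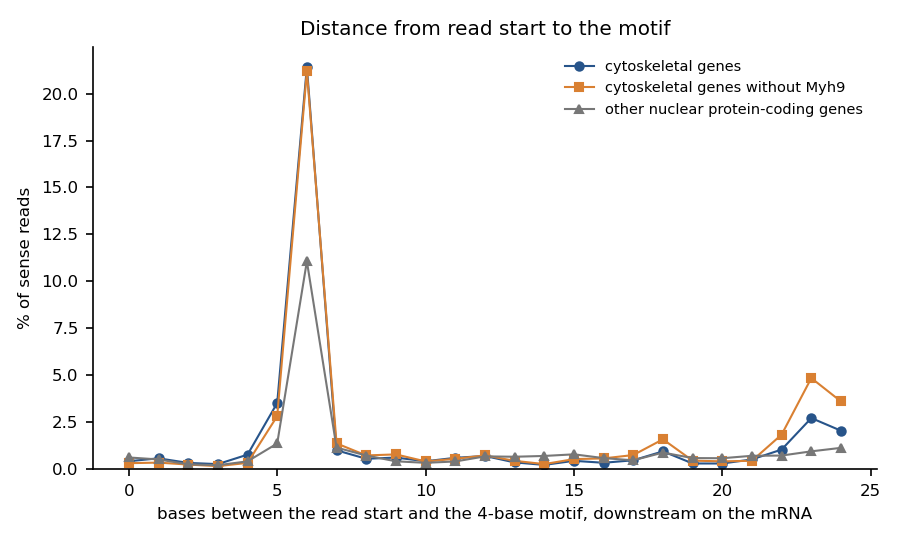
Percentage of sense reads on the main transcript with the 4-base motif at each distance downstream of the read start, for the cytoskeletal genes, the same without Myh9, and other nuclear protein-coding genes. All 3 curves peak at 6 bases, at 21.42%, 21.18% and 11.07%.

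Of the actins, the subunits of the filament, Actb (cytoplasmic beta-actin; chromosome 5, 142903115 to 142906754) had 18453 sense reads and the highest level of the 35, 218.5 RPKM, rank 16 of 21888 protein-coding genes by that measure. Its reads lay near the end of the coding sequence, with a median at 91.9% of its length, and 10 positions held 82.9% of them. The leading position, in codon 352 of the last exon, had 4793 reads, and the next, in codon 346, had 2568. Actg1, cytoplasmic gamma-actin, had 4421 reads and 52.75 RPKM, and 99.75% of its reads began in the downstream untranslated region, 58.29% of them at 1 base. Actins share much of their coding sequence, and reads that matched several genes equally were set aside: divided equally among those genes, they came to 21680 reads for Actb and 5319 for Actg1. The counts of these genes are therefore of the parts that tell them apart. Acta2, smooth muscle alpha-actin, had 3261 reads and 47.1 RPKM, 99.2% of them in coding sequence. Its leading positions lay close together in exon 4 of 9, with 787 reads in codon 114 and 749 in codon 117.

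The regulators of actin turnover and the crosslinkers were read far less. Cfl1, cofilin, which severs filaments, had 876 sense reads (9.77 RPKM), and Pfn1, profilin, which delivers monomers to growing ends, had 652 (8.60 RPKM). Of the crosslinkers, Iqgap1, a scaffold that binds actin at the cortex, had 735 reads (1.41 RPKM). Flna, filamin A, had 207 (0.698), Actn4 190 (0.984) and Actn1 146 (0.837), the last pair being the nonmuscle alpha-actinins that bundle filaments. Their levels were near the 0.972 RPKM median of other protein-coding genes with at least 50 sense reads.

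Myh9, the heavy chain of nonmuscle myosin IIA (chromosome 15, 77760587 to 77842175), had the most reads of the 35: 50334 (95% Poisson interval 49900 to 50780), rank 10 of 21888 protein-coding genes, at 123.5 RPKM. The reads began at 889 positions, and 99.98% of them in coding sequence. The sites with most reads lay in the tail of the protein: codons 1197 to 1274 held 17646, 6099, 6737 and 6529 reads in successive windows of 19 or 20 codons, and codons 1569 to 1588 held 4124. The leading position, in codon 1200 of exon 27 of 41, had 9337 reads, of which 9150 were neither 36 nor 40 bases long and most often 26. Reads of 26 bases made up 18.28% of the Myh9 sense reads, and Myh9 held 35.86% of all nuclear sense reads of that length. These were the shortest reads searched, placed by 20 bases each, and shorter ones were left out. Myh10, the heavy chain of nonmuscle myosin IIB, had 1173 reads and 3.56 RPKM, and no position held more than 4.52% of them. The light chains Myl6 and Myl9, which bind the neck of the heavy chain, had 5 reads each (interval 1.62 to 11.7). Another 15.3 reads were the share of Myl6 in reads set aside because they matched several genes, and none were for Myl9. Heavy chain mRNA was thus read at 123.5 and 3.56 RPKM, and light chain mRNA, from reads of 1 gene alone, at 0.0498 for Myl6 and 0.136 for Myl9.

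Cald1, caldesmon, which binds actin, myosin and tropomyosin (chromosome 6, 34598500 to 34775473), had 15288 sense reads and 40.3 RPKM. Its reads clustered in codons 177 to 192, where adjoining windows of 8 codons held 3922 and 4748 reads. The leading base, in codon 184 of exon 5 of 15, had 2267, and the sequence printed above runs in purines through most of its length. Purines made up 73.4% of the matched bases of Cald1 reads and 69.3% of its coding sequence. Among tropomyosins, Tpm1 had 1597 reads (7.81 RPKM), against 114 for Tpm2 (1.24), 106 for Tpm3 (0.552) and 88 for Tpm4 (1.27). Reads set aside came to a further 92 for Tpm3 and 25 for Tpm4. The smooth muscle proteins Tagln, with 75 reads (1.20 RPKM), and Cnn1, with 19 (0.220), were low, as was Cnn2 with 27 (0.348). Of 13 smooth and striated muscle markers, 4 had at least 50 sense reads, a share near the 29.2% of all nuclear protein-coding genes. They were led by Myh11 with 281 and Actg2 with 114, and Actc1 was at 0. Acta2 and Cald1 had more reads than any of these 13 markers.

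The adhesion plaque and membrane linker mRNAs were read at intermediate levels. Tln1, talin, which couples integrins to actin, had 738 reads (2.39 RPKM), and 33.6% of its reads had AGAT after 6 bases. Vcl, vinculin, which binds talin, had 300 (1.16), and Zyx, zyxin, had 64 (0.377). The membrane linkers Ezr and Msn, ezrin and moesin, had 899 (8.67) and 1065 (5.34). The spectrins, which form the lattice under the membrane, were read at 1615 for Sptbn1 (2.93) and 466 for Sptan1 (1.11).

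The giant linkers had many reads but, per length, modest levels. Dst, dystonin, had 4857 (3.74 RPKM over 41155 bases of exon), of which 1278 began at a single base in codon 1397. Macf1, which links microtubules and actin, had 2658 (2.69 RPKM), with 267 at the leading base, in an isoform of 6 exons. Plec, plectin, which ties intermediate filaments to other structures, had 484 (0.848). Ahnak, a giant membrane-associated protein, had 3714 (5.91), and was the most evenly read: 561 positions, with 1.97% of reads at the leading one and 15.5% at the 10 leading ones. Its 561 positions were fewer than the 889 of Myh9 and the 577 of Cald1, from far fewer reads.

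Vim, vimentin, the intermediate filament protein of mesenchymal cells, had 2050 reads (13.7 RPKM), 825 of them at 1 base in codon 344. Lmna, the A-type lamin of the nuclear envelope, had 263 (1.43). Mapt, tau, a microtubule-binding protein of neurons, had 2814 reads (11.9 RPKM), but they were narrowly placed. Of these, 97.58% began in the downstream untranslated region, 2.10% in coding sequence, and 68.91% at a single base. The reads began at 33 positions, and purines made up 97.7% of the matched bases. The coding sequence, in which few of these reads lay, had 53.7%. Reads set aside because they matched several genes came to a further 740.2 for Mapt. Of 9 neuron markers, 2 had at least 50 sense reads, Stmn2 with 70 and Syn1 with 50, where 29.2% of nuclear protein-coding genes had that many.

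Reads of these mRNAs fell largely in coding sequence. The coding share was 89.8% of sense reads (89.63 to 89.97) and 8.87% began in downstream untranslated sequence, against 78.79% and 15.02% in other nuclear protein-coding genes. By gene, the median coding share was 86.6% over 31 mRNAs and 62.7% over 6350 other genes with at least 50 sense reads. Several genes went the other way: the coding share was 3.77% in Tpm3, 24.4% in Cfl1, 25% in Tpm4, and 0 of 4421 reads in Actg1. These shares cover only reads of 1 gene. Those set aside because they matched several genes came to 5319 for Actg1 and 92 for Tpm3. Without Myh9 the pooled share was 82.42%. None of these coding shares was set against how much of each mRNA is coding sequence. Purines made up 60.24% of the matched bases of these mRNAs and 60.39% of those of other protein-coding genes.

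Coding reads were then placed in coiled-coil-like and other parts of the proteins. A residue was called heptad-rich when it lay in a window of 42 residues without proline, with at least 60% hydrophobic residues at the core positions of the repeat and at least 40% polar ones elsewhere. The rule finds long amphipathic helices, so that it also called stretches of the myosin head. In 18 genes with both kinds of sequence and at least 50 coding reads, the share of reads in heptad-rich sequence exceeded its share of residues in 9. The density ratio was above 2 in 8 of 18, against 26.1% of all such genes, and its median was 1.07 against 0.495 in 2541 other genes. Pooled over other such genes, 16.39% of coding reads and 15.81% of residues were heptad-rich, so their low median did not hold for the pool. Myh9 had 96.9% of coding reads in heptad-rich sequence, which made up 64.8% of its residues. Myh10 had 87.1% against 67.9%, Vim 84.5% against 68.3%, and Plec 84.9% against 43.6%. For Dst the values were 78.3% and 44.0%, for Macf1 75.2% and 46.6%, for Vcl 68.8% and 39.9%, and for Ezr 61.8% and 34.4%. In these 8 genes, coiled-coil-like sequence held a clearly larger share of the read starts than of the residues.

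**Figure D3:**
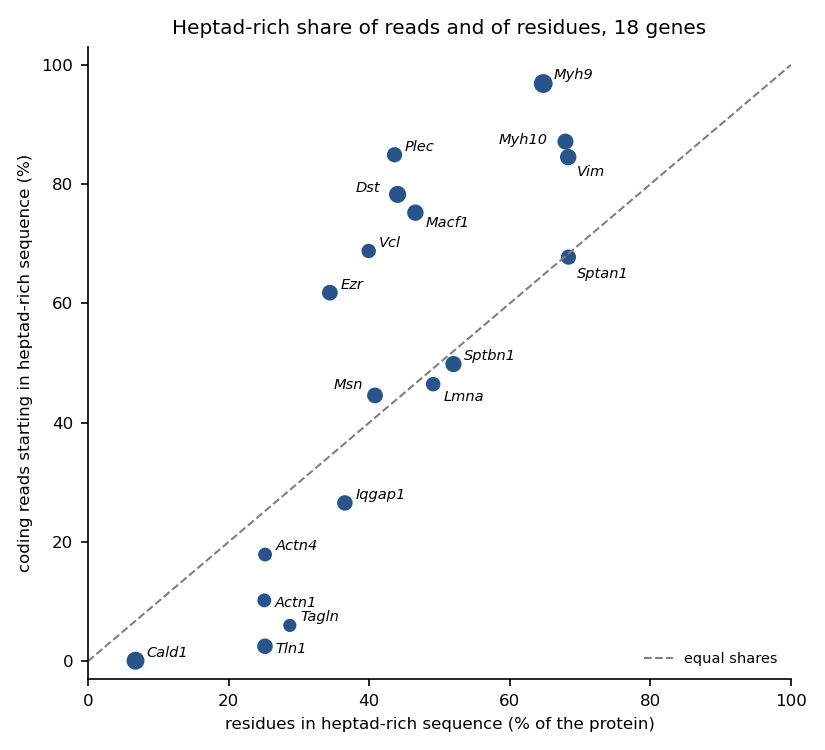
Share of coding reads that began in heptad-rich sequence against the share of residues that is heptad-rich, for 18 genes with at least 50 coding reads; larger points have more coding reads, and the dashed line marks equal shares. Myh9, Myh10, Vim, Plec, Dst, Macf1, Vcl and Ezr lie well above the line, and Cald1, Tln1, Tagln, Actn1 and Actn4 below it.

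In the other genes the ratio was 1.17 or less. Sptan1 had 67.8% of reads in heptad-rich sequence against 68.3% of residues, Sptbn1 49.8% against 52.0%, Lmna 46.5% against 49.1%, and Msn 44.6% against 40.8%. Fewer reads than residues were in heptad-rich sequence in Iqgap1 (26.5% against 36.6%), Actn4 (17.9% against 25.2%), Actn1 (10.2% against 25.1%), Tagln (6% against 28.7%) and Tln1 (2.50% against 25.2%). In Cald1 it was 0.0816% of 14700 coding reads against 6.76% of residues. Pooled, 73.45% of coding reads and 45.61% of residues of the 18 genes were heptad-rich. Without Myh9 it was 34.17% of 30000 reads and 44.59% of residues, and Cald1 held 14700 of those 30000 reads. The pooled values thus depended on single genes with many reads, Myh9 in the first and Cald1 in the second. The median ratio was 1.61 over 14 genes when each start position was counted once, 2.19 over 13 genes with 36-base reads alone, and 2.10 over 24 genes with a window of 28 residues. Heptad-rich coding bases of the 18 genes had 58.87% purines, against 55.03% of their other coding bases. AGAT followed after 6 bases at 0.638% of the heptad-rich bases (0.572 to 0.709) and 0.673% of the others (0.611 to 0.740), a difference within the counting intervals.

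**Figure D4:**
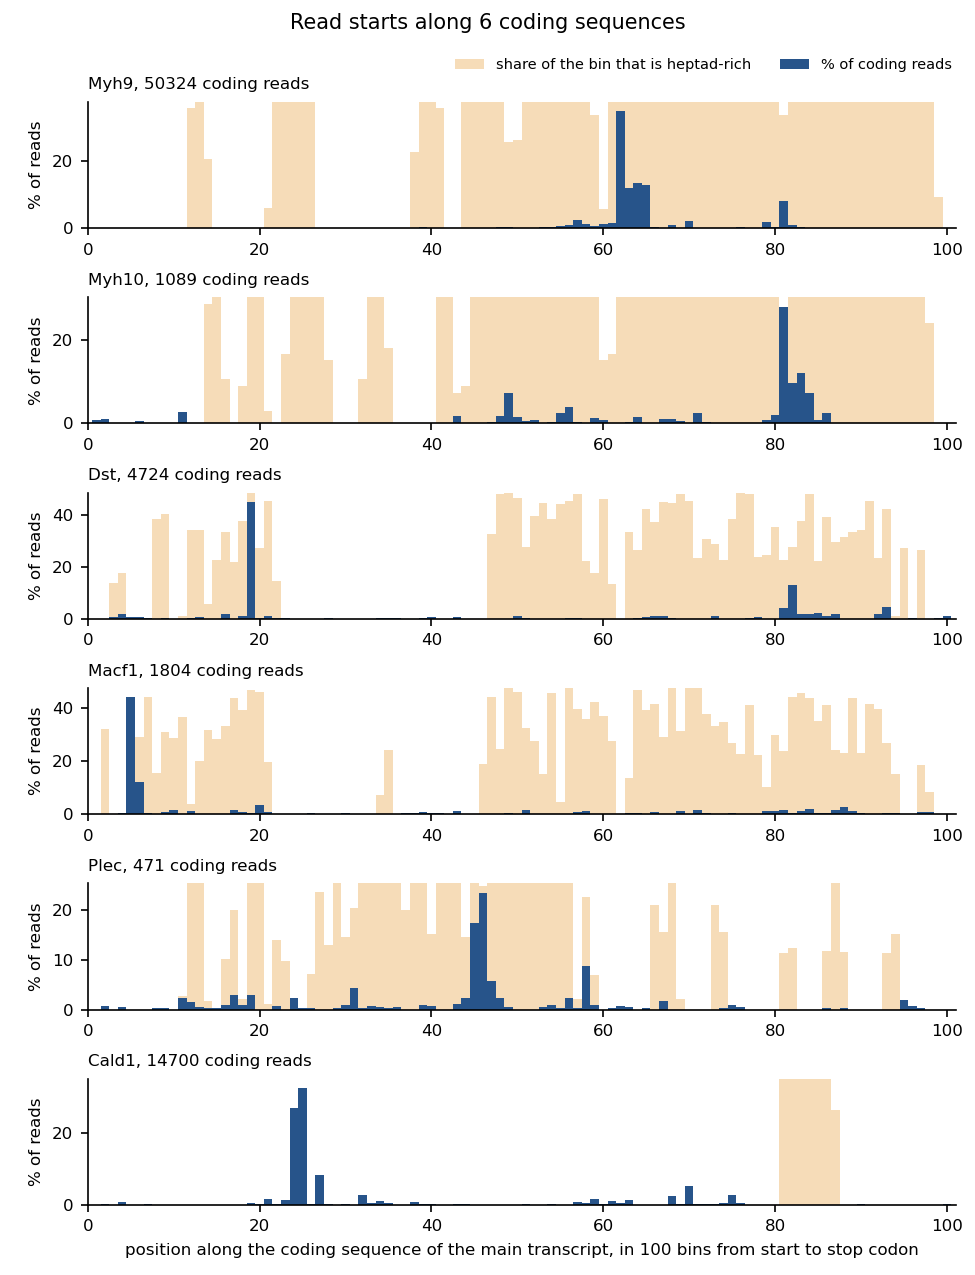
Percentage of coding reads that began in each of 100 equal bins along the coding sequence of 6 genes, with shading to the height of the share of each bin that is heptad-rich. Reads of Myh9 peak in the bin of codons 1197 to 1215 with 17646 reads, within the tail, while those of Cald1 peak at codons 177 to 192, outside its heptad-rich part.

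The profiles along the coding sequence show peaks rather than an even cover of the coiled coils. Myh9 reads left most of the head nearly empty and clustered in parts of the tail, and Myh10 reads clustered in the later part of its own tail, with the most in codons 1612 to 1631 (304 reads). That bin is number 81 of 100, the same relative position as a lesser Myh9 peak, that of codons 1569 to 1588. In bins 62 to 65, which hold the main Myh9 peak, Myh10 had 0, 3, 16 and 0 reads. Dst had a strong peak early in the sequence and a weaker one late, and Macf1 a strong peak near its start. In Plec the peak lay within the long heptad-rich stretch in the middle of the protein.

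The 18 genes are those with reads enough for both parts. Tropomyosins, which are coiled coils over nearly their whole length (99.6% to 99.7% of residues heptad-rich), leave no other part to compare.

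Reads of 36 and of 40 bases, which the pool holds side by side, differed in how they were spread over these mRNAs. Over the 35 genes 15023 of 105798 such sense reads were of 36 bases, 14.2% (13.99 to 14.41), against 11.43% of all nuclear sense reads, and 11.75% without Myh9. No label ties a read length to a library. Of 14 genes with at least 1000 reads of both lengths, 1 was over 2-fold above the share of all nuclear sense reads, where the background was 9.04%, and 2 were over 2-fold below, where it was 20.9%. Acta2 was the one above: 2765 reads of 36 bases and 422 of 40, a share of 86.8% (85.53 to 87.92). Both of its leading positions were of that kind, with 724 reads of 36 bases and 63 of 40 at the first and 715 and 34 at the second. The 2 below were Cald1, with 386 reads of 36 bases and 14466 of 40 (2.60%), and Mapt, with 25 and 2788 (0.889%).

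With a minimum of 200 reads, 5 of 24 genes were over 2-fold above, where the background was 10.1%, and 2 were over 2-fold below, where it was 17.6%. Beside the 3 genes named above, those beyond 2-fold were Plec with 51.7%, Lmna with 27.1%, Ezr with 23.9% and Pfn1 with 23.1%. In Actb the share was 6.87%, and its leading position had 4793 reads of 40 bases and 0 of 36, whereas the next had 230 of 36 and 2338 of 40. The 0 is a count with an upper limit of 3 reads. The same sort of position was seen in Dst, with 21 reads of 36 bases and 1257 of 40, and in Macf1, with 3 and 264. All 3 have AGAT after 6 bases, but so few 36-base reads were also found at leading positions without it, in Mapt (0 of 36 bases and 1939 of 40) and Cald1 (25 and 2226). Other positions with AGAT had more of them, as in Tpm1 (29 and 88) and Vim (93 and 732). Over sense reads of these mRNAs placed on the main transcript, AGAT followed in 9.29% of the 36-base and 16.15% of the 40-base reads. Both were below the 21.42% over all lengths, which include the 9150 Myh9 reads of other lengths at its leading position. The 36-base share was 15.95% over the fibroblast markers, 5.36% over the stem cell markers and 18.12% over the muscle markers. The stem cell value rested on Lefty2 (2.58%) and was 9.83% without it, and the fibroblast value was 12.95% without Fn1. By gene, with at least 50 reads of both lengths, the median was 13.8% over 14 fibroblast, 11.18% over 12 stem cell and 15.17% over 4 muscle markers, and the ranges overlapped (4.74% to 33.02%, 2.58% to 29.04% and 7.78% to 40%). Their part in the values of Acta2 and Cald1 was not tested.

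**Figure D5:**
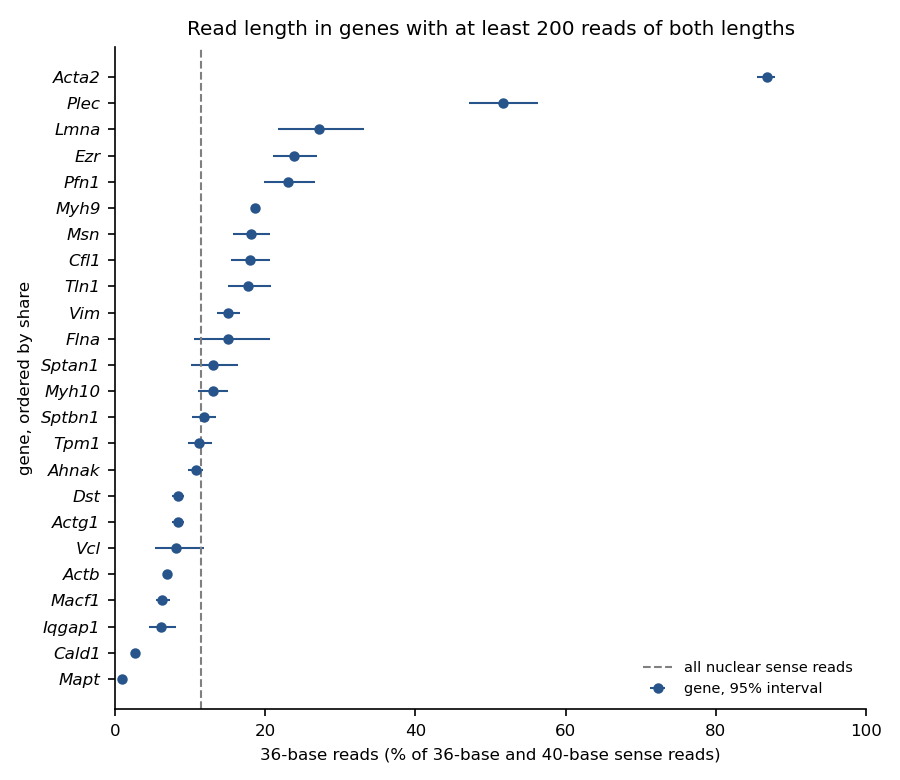
Percentage of 36-base reads among sense reads of 36 and 40 bases in 24 genes with at least 200 such reads, with 95% Clopper-Pearson intervals; the dashed line is the share of all nuclear sense reads (11.43%). Acta2 (86.8%) and Plec (51.7%) lie to the right of all other genes, and Mapt (0.889%) and Cald1 (2.60%) at the left.

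On the strand opposite to the mRNA there were 7090 reads, 5.59% of the total of both strands (5.46 to 5.72), against 12.62% in other nuclear protein-coding genes. Counted by start positions the share was 15.88%, and without Myh9 8.87%. The median over 31 genes was 11.6%, against 15.8% over 7761 other genes. The share was above 50% in 1 of 31 genes, where 15.7% of 8911 nuclear genes with at least 50 reads, coding and noncoding, were above it. This gene was Actn4, with 357 antisense and 190 sense reads, 65.3% (61.11 to 69.25). By start positions its antisense share was 40.6%. Another annotated gene overlaps its exons on the other strand, but reads that matched that gene's own mRNA strand are not among the 357.

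High antisense shares were found both with and without an annotated gene on the other strand. Reads that matched the mRNA strand of any annotated gene were not counted as antisense. The antisense reads below are therefore those that such an overlapping gene did not take up. In Cfl1 and Msn, where exons overlap a gene of the other strand, there were 548 antisense reads (38.5%) and 600 (36.04%), and 369 of those in Cfl1 began at 1 base. In Ahnak, Sptan1, Tpm2 and Vim no annotated exon lies opposite. Ahnak had 1888 antisense reads at 151 positions, 33.7% of its reads (32.46 to 34.96), Sptan1 245 (34.5%), Tpm2 91 (44.4%) and Vim 439 (17.6%). At the low end, antisense shares were 0.495% in Actg1, 0.659% in Myh9, 0.741% in Mapt and 1.09% in Cald1. Among the 3 genes with most sense reads the share was thus highest in Actb, at 1.86%.

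Of other genes of the same systems, counted from lists that leave out the 35, the adhesion and actin lists came nearest to these mRNAs in level. Of 22 further adhesion plaque and crosslinker genes 18 had at least 50 sense reads, with a median of 1.55 RPKM, led by Itgb1, the beta-1 integrin, with 8396 and Cdh1, E-cadherin, with 1349. Of 40 genes of actin nucleation and turnover 31 had that many (median 1.17), led by Enah, an elongation factor for actin filaments, with 55903 reads, and Actr2, a subunit of the Arp2/3 complex, with 1659. Enah thus had more reads than Myh9. Of 26 further myosins and regulators 17 had at least 50 (median 0.417), led by Ppp1r12a, the targeting subunit of myosin phosphatase, with 2629 and Rock1, a kinase that acts on the same light chain, with 920.

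The remaining lists lay lower per length. Of 33 spectrins, ankyrins and giant proteins 25 had at least 50 reads (median 0.276), led by Utrn, utrophin, which links actin to the dystroglycan complex, with 49162 and Mdn1, a giant ATPase of ribosome assembly, with 7911. Of 14 intermediate filament proteins and lamins 7 did (median 0.335), led by Lmnb1 with 1066 and Ina with 401, while Krt18 and Gfap were at 0. Of 23 tubulins and microtubule-associated proteins 11 did (median 0.326), led by Map1b with 2909 and Map4 with 797. A list that joined SRF, the factor that drives many actin genes, and its MRTF cofactors with genes of the Hippo pathway had 3 of 6 (median 0.340), all of them Hippo pathway genes: Wwtr1 with 414, Tead1 with 292 and Yap1 with 115. Srf itself had 26 reads, Mrtfb 42 and Mrtfa 12. The median of the 35 genes, 2.39 RPKM, was above that of all 7 of these lists. It was below that of the fibroblast markers, 4.90, and the stem cell markers, 5.17. The genes and lists were chosen with earlier results of these data known, so this order describes them only.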

How the data were processed

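The authors' deposited table gives read counts, 1 row for each distinct sequence, not scaled to depth. It holds 34072479 reads of 6540936 sequences. Per the submitters' processing notes the build is mm9. The aligner, the read filters and the library behind each count are not given in the sources used here, so all counts were treated as 1 pool. The 35 genes, their lists and roles were chosen with earlier results of these data known.

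After 6 leading bases were left out, bwa 0.7.19 placed reads with at least 20 bases left on the mouse transcripts of GENCODE M21, build GRCm38, allowing 2 mismatches and no gap. A read was counted where its best placements lay on 1 gene, with sense given priority over an overlapping antisense gene. Of 31529044 searched reads, 11369238 were assigned. Introns, intergenic sequence and mm9 were not searched. RPKM was computed from the deposited counts per kb of merged exon and 1000000 searched reads. Coding positions refer to the transcript with the longest complete coding sequence of each gene. Percentages carry 95% Clopper-Pearson intervals and counts Poisson intervals (scipy 1.17.1). A 36-base share was called different beyond 2-fold with at least 1000 reads, and an antisense share above 50% when its interval lay above it with at least 50 reads. Every gene of the 35 is named, the 12 most read and those above 50% antisense in more detail, and the 2 most read of each other list.

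On 20000 simulated reads 88.1% came back to the right gene in the right orientation, 10.5% fitted more than 1 gene, 1.15% were counted for an opposite-strand neighbour that overlaps, and 0.175% were wrong. These rates are not split by read length. They therefore give no error rate for reads placed by only 20 bases, such as the 26-base reads that made up 18.28% of Myh9 sense reads. Nor do they cover reads that came from introns or intergenic sequence. Designed coiled coils were called heptad-rich over 97.7% of residues and random sequences over 3.20%. Alternatives changed the reads counted, the mismatches, minimum lengths and minima, the leading bases, the heptad window and the treatment of reads of several genes. Leaving out Myh9 or the reads followed by AGAT was added after the data were seen.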

Additional observations from a re-analysis of the deposited data

How the results depend on the processing

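No paired analysis was possible because the counts carry no library or replicate. Without replicates, a share is here taken to have moved when it left its counting interval, which is narrow at this depth, and small shifts therefore count. Genes with at least 50 sense reads were 20 of 35 with 36-base reads alone. The median level was 0.319 RPKM with each start position counted once, 0.744 with each distinct sequence once, 1.18 with no mismatch and 1.24 with no leading bases left out. All of these levels kept the full number of searched reads as the denominator, so that counting fewer reads could only lower them.

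The coding share was 85.8% by start positions, 91.25% by distinct sequences, 92.33% with no mismatch, 88.64% with reads of at least 30 bases, 87.62% with no leading bases left out, 90.29% with reads of several genes shared, 92.94% in 36-base and 87.81% in 40-base reads, 92.15% without the most read positions, 82.42% without Myh9 and 90.09% without reads followed by AGAT. The median heptad density ratio was 1.61 by start positions, 2.19 in 36-base reads and 2.10 with a window of 28 residues, and stayed above 1 in the other alternatives run.

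The antisense share was 15.88% by start positions, 6.72% by distinct sequences, 5.31% with no mismatch, 6.14% with at least 30 bases, 4.88% with no leading bases left out, 5.07% with reads shared, 8.74% and 5.77% in 36-base and 40-base reads, 4.12% over the 22 genes with no exon overlap and 8.87% without Myh9. Genes above 50% antisense numbered 2 in 36-base reads, 0 by distinct sequences and 0 by start positions, so that the call for Actn4 was lost when repeated reads counted once.

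The 36-base share was 36.86% by start positions, 24.1% by distinct sequences, 14.79% with no mismatch, 15.17% with no leading bases left out and 11.75% without Myh9. Genes beyond 2-fold in it numbered 0 of 1 by start positions, 1 of 5 by distinct sequences and 7 of 24 with a minimum of 200 reads. The purine share was 59.61% by start positions, 62.65% by distinct sequences, 59.12% with no mismatch, 56.59% with no leading bases left out, 58.13% with reads shared, 58.9% and 60.42% in 36-base and 40-base reads, 60.67% without the most read positions, 58.38% without Myh9 and 61.81% without reads followed by AGAT. The share at the most read position of each gene, 21.11% as first counted, was 8.65% by distinct sequences, 20.61% with no mismatch, 16.67% with at least 30 bases, 20.48% with no leading bases left out, 18.5% with reads shared, 14.13% and 17.82% in 36-base and 40-base reads, 22.96% without Myh9 and 12.1% without reads followed by AGAT. The causes of these shifts were not tested.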

Other observations

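Several of the 35 genes had reads on isoforms that are annotated as noncoding. In Tpm1, 874 of 1597 sense reads (54.7%) began in exons found in processed transcripts alone and 12 (0.751%) in a retained intron, and the second most read position of the gene, with 112 reads, was of this kind. In Zyx the share on processed transcripts was 56.3% (36 of 64 reads), and 24 of these began at 1 base. Retained introns held 131 of 735 reads in Iqgap1 (17.8%) and 11 of 75 in Tagln (14.7%). In Myh9, Actb, Ahnak and Vim, the share on noncoding isoforms was at most 0.00993%. Introns that no transcript model retains were not searched, so these shares hold for annotated isoforms.

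Antisense reads were also concentrated at some positions. In Ahnak 484 of 1888 began at 1 base and 188 at the next, both opposite coding sequence. In Sptan1 119 of 245 (48.6%) began at 1 base, in Vim 129 of 439 (29.4%) and in Msn 141 of 600 (23.5%). In Cfl1 the antisense reads at the leading base, 369 of 548, were 205 of 36 bases and 164 of 40, whereas its sense reads were 154 of 36 bases and 706 of 40.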
